A study of Mus musculus with 8 samples.

Results

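The E2F transcription factors and the pocket proteins that bind them were followed in colonic epithelial cells of mice colonized with a mutant or the WT strain of *Bacteroides thetaiotaomicron* (*B. theta*), a gut symbiont. The genes were E2f1, E2f2, E2f3, E2f4, E2f5, E2f7, E2f8, Rb1, Rbl1, and Rbl2, and every probe set annotated to 1 of these genes and to no other gene was included. All 10 genes, of the 18193 that a probe set names alone, were represented, by 22 of the 45037 probe sets tested. The mutant strain, BTΔMAFF, carries a deletion of both genes of the MAFF locus (Mucus-Associated Functional Factor), and BTWT has the intact locus.

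Each of 8 mice, 4 colonized with BTΔMAFF and 4 with BTWT, gave 1 Affymetrix mouse genome array. All were male C57BL/6 mice kept under specific pathogen–free conditions and given metronidazole and ciprofloxacin before inoculation, so antibiotics and colonization with *B. theta* were common to both groups. Colonization was at an age of 8 wk, and the colon was taken 4 wk afterwards, at 12 wk. Living cells positive for EpCAM and negative for CD45 were sorted from the colon, and their RNA was amplified before labeling. In such bulk samples, fewer dividing cells and less mRNA per dividing cell cannot be told apart.

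The deposited values are log2 values from which the authors subtracted, for each probe set, the median of the 8 arrays. They therefore give differences between mice and no level, and no detection call can be made. Differences are BTΔMAFF minus BTWT throughout, fitted with limma over all probe sets, and adjusted p-values are after Benjamini-Hochberg correction over all 45037. None of the 45037 probe sets had an adjusted p under 0.05 in limma, and 2295 had an unadjusted p under 0.05. The methods' unpaired test gave 0 and 1721. The arrays of BTΔMAFF replicate 4 and BTWT replicate 2 stood apart from the other 6 on principal component 1 (29.4% of the variance). Epcam (log2 fold change −0.10) and Ptprc, which encodes CD45 (0.0067), did not pass the unadjusted threshold. Each value is from 1 of 2 probe sets of the gene, the one with the largest SD over all arrays. None of 10 leukocyte and none of 8 stromal marker genes passed it in either direction. With centred values it cannot be said whether leukocyte markers were absent.

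E2F proteins bind DNA at the promoters of genes needed for DNA replication and cell division. Activator E2Fs (E2f1, E2f2, and E2f3) drive these genes when the G1 cyclin-dependent kinases release them from the retinoblastoma protein Rb1. Repressor E2Fs (E2f4 and E2f5) hold them off in resting cells together with Rbl1 (p107), Rbl2 (p130), and the MuvB complex, the assembly known as DREAM. The atypical E2Fs (E2f7 and E2f8) need no DP partner, repress E2F targets late in S phase, and are themselves E2F targets. In the colon, dividing cells lie in the lower crypt, and the cells leave the cycle as they move to the surface.

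The promoter letters are shown because several of these genes are themselves regulated by E2F proteins, and because the values of E2f2 and E2f8, described next, stood out among them. RefSeq promoters (GRCm38.p6, 250 bases before and 50 after a gene start) were found for 7 of the 10 genes, as 9 promoters. E2f4, E2f5, and Rb1 had no entry in the table used. The only windows for E2f1 and E2f8 lay wholly inside the annotated genes. Their starts were at 154569426 and 48881596 on the − strand, where the genes begin at 154569892 and 48882073. For these genes, a word present or absent therefore says nothing about the letters before the annotated gene start. The windows of the second starts of E2f2 and E2f3 also lay wholly inside the annotated genes, and the same limit holds for them. The E2F words searched were TTTCCCGC, TTTCGCGC, TTTGCCGC, and TTTGGCGC, and the word of the cell cycle genes homology region (CHR), which MuvB complexes bind, was TTTGAA, each on both strands. Neither set of words overlaps the other. An E2F word was present in 744 of 32851 promoters of 300 bases (2.26%) and the CHR word in 5878 (17.9%). Among the 9 member promoters, 4 held an E2F word (E2f2, E2f3, E2f7, and Rbl1) and 4 the CHR word (a second start of E2f2, E2f3, E2f8, and Rbl2). The windows below have up to 10 bases on each side of a match, read along the gene's strand, with matched letters in capitals, cut where the window ends.
E2f2, first start, chr4:136172303-136172323, + strand: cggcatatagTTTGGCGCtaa
E2f2, second start, chr4:136180741-136180766, + strand: agcctgtgtgTTTGAAtggtgtggaa
E2f3, E2F word, chr13:29986057-29986084, − strand: TGAAaagccgGCGGGAAAtctgagtttc
E2f7, chr10:110745231-110745258, + strand: ccgcgtccccGCGGGAAAcgctcccgcg
E2f8, chr7:48881601-48881626, − strand: gcgggttaatTTCAAAtcgggggctg
Rbl1, chr2:157204535-157204562, − strand: agaaggcgatTTTCGCGCgctttgtcgc
Rbl2, chr8:91069846-91069871, + strand: tctttttctcTTCAAAcgagccttct
In E2f3, the CHR word ended 6 bases before the E2F word, which is why its last letters appear in capitals in that window. The E2f2 word began at base 40 after its first start, whereas the Rbl1 word began 18 bases before its start. The E2f8 word began 20 bases before the start used for it, which lies inside the annotated gene. The 250 bases before the first E2f2 start, chr4:136172024-136172273 on the + strand, held neither word:
E2f2, upstream: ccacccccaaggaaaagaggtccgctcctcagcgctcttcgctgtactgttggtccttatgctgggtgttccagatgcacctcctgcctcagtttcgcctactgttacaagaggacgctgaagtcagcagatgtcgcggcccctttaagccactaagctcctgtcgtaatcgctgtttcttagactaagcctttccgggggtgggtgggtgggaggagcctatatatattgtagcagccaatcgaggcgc
A match describes letters in a window and not a bound site.

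Across the family, E2f2 and E2f8 had lower values in BTΔMAFF-colonized mice, and the other 8 genes gave no probe set past the unadjusted threshold in either direction. Of the 22 probe sets, 3 were lower in BTΔMAFF at an unadjusted p under 0.05 and none was higher, against 2.24% of all probe sets lower, 2.86% higher, and 5.1% in either direction. These were 1 of the 2 probe sets of E2f2 and both of E2f8. By the thresholds the study set for its arrays, a fold change over 2 together with an unadjusted p under 0.05, 2 member probe sets were lower in BTΔMAFF, 1 of each gene, against 0.262% of all probe sets lower and 0.548% in either direction. None had an adjusted p under 0.05, the lowest being 0.446. Both genes are also in the study's own table of genes picked as higher in BTWT from these arrays, so their direction here is not independent evidence.

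E2f2, an activator E2F, had the lowest p of the family with probe set 1455790_at. Its centred log2 values were −0.85, −0.0031, −1.06, and −1.24 in BTΔMAFF replicates 1 to 4, against 1.14, 0.97, 1.13, and 0.0031 in BTWT replicates 1 to 4. All 4 BTΔMAFF mice lay below all 4 BTWT mice, but BTΔMAFF replicate 2 and BTWT replicate 4 were only 0.00618 apart. The values of these mice mirror each other because each probe set's median is set to 0. The groups averaged −0.79 ± 0.55 in BTΔMAFF and 0.81 ± 0.54 in BTWT (SD, n = 4 each), a log2 fold change of −1.60 (standard error 0.36, 95% confidence interval −2.44 to −0.76), or 3.03-fold lower. Its unadjusted p in limma was 0.00284 and its adjusted p 0.446. The p stayed between 0.00076 and 0.0101 when each of the 8 arrays was left out in turn. Without both arrays that stood apart, the log2 fold change was −1.40 (unadjusted p = 0.0295).

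The other E2f2 probe set, 1436434_at, was also lower on average in BTΔMAFF but did not pass. Its values were 0.26, −0.18, −0.45, and −0.29 in BTΔMAFF replicates 1 to 4, against 1.46, −0.067, 1.56, and 0.067 in BTWT replicates 1 to 4. BTWT replicates 1 and 3 were far above every other mouse, and BTWT replicates 2 and 4 lay within the range of BTΔMAFF. The log2 fold change was −0.92 (standard error 0.43, interval −1.93 to 0.093, unadjusted p = 0.0689 and adjusted p = 0.828 in limma). It passed the unadjusted threshold without BTWT replicate 2 (unadjusted p = 0.0249) or without BTWT replicate 4 (unadjusted p = 0.0381). In BTWT replicate 2 the probe sets of E2f2 differed, with 0.97 on 1455790_at and −0.067 on 1436434_at.

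E2f8, an atypical E2F that represses E2F targets, had the second lowest p with 1436186_at. The values were −0.46, −0.15, −1.88, and −1.65 in BTΔMAFF replicates 1 to 4, against 0.87, 0.72, 0.27, and 0.15 in BTWT replicates 1 to 4. All 4 BTΔMAFF mice lay below all 4 BTWT mice, with a gap of 0.297 between the groups, and the centring places 0 in that gap. BTΔMAFF replicates 3 and 4 were far lower than replicates 1 and 2. The groups averaged −1.03 ± 0.86 in BTΔMAFF and 0.50 ± 0.35 in BTWT (SD, n = 4 each), a log2 fold change of −1.54 (standard error 0.43, interval −2.54 to −0.53), or 2.90-fold lower. Its unadjusted p in limma was 0.00874 and its adjusted p 0.640.

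The second E2f8 probe set, 1444319_at, had a smaller difference in the same direction. It gave 0.070, −0.50, −0.43, and −0.40 in BTΔMAFF replicates 1 to 4, against 0.67, 0.11, 0.52, and −0.070 in BTWT replicates 1 to 4. The groups overlapped, since BTΔMAFF replicate 1 lay above BTWT replicate 4. The log2 fold change was −0.62 (standard error 0.20, interval −1.10 to −0.15), or 1.54-fold lower, with an unadjusted p of 0.0172 and an adjusted p of 0.782 in limma. Both E2f8 probe sets kept an unadjusted p under 0.05 when any 1 array was left out (at most 0.0265 for 1436186_at and 0.0463 for 1444319_at). Without both arrays that stood apart, neither did, at −1.26 (unadjusted p = 0.0651) and −0.66 (unadjusted p = 0.057).

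**Figure D1:**
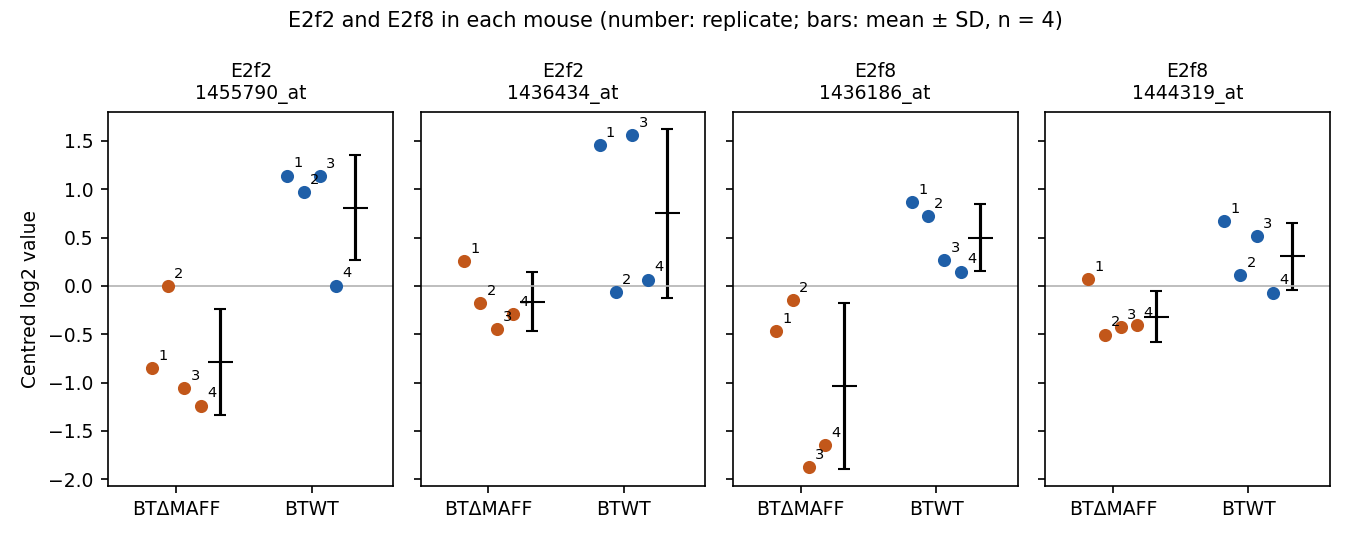
Centred log2 values (vertical axis) of the E2f2 and E2f8 probe sets in each mouse, 1 panel per probe set, with 1 numbered point per replicate and a bar for the mean ± SD (n = 4), BTΔMAFF left of BTWT. The groups do not overlap on E2f2 1455790_at, where the closest mice are 0.00618 apart, or on E2f8 1436186_at, where they are 0.297 apart, and they overlap on the other panels.

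E2f1 and E2f3, the other activators, gave differences near 0. In Affymetrix names, the endings _x_at and _s_at mark probe sets that may also match other transcripts. E2f1 had means that were lower in BTΔMAFF on all 3 of its probe sets, from −0.11 on 1431875_a_at to −0.034 on 1417878_at, and none passed. On 1431875_a_at the groups did not overlap. With E2f2 1455790_at and E2f8 1436186_at, this made 3 of the 22 probe sets in which all BTΔMAFF mice lay below all BTWT mice, against 1.27% of all probe sets, and 2.83% when either direction is counted. This E2f1 probe set read −0.0027, −0.0023, −0.024, and −0.040 in BTΔMAFF replicates 1 to 4, against 0.14, 0.22, 0.012, and 0.0023 in BTWT replicates 1 to 4. The gap between the groups was 0.00452, and the groups overlapped once the arrays were quantile normalized or each was centred on its median. Its log2 fold change was −0.11 (standard error 0.052, interval −0.23 to 0.012, unadjusted p = 0.0713). Leaving out BTWT replicate 3 gave an unadjusted p of 0.0428, and leaving out BTWT replicate 4 one of 0.0337. E2f3 gave −0.099 (interval −0.42 to 0.23) on 1427462_at and 0.052 (interval −0.17 to 0.28) on 1434564_at.

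Some member probe sets hardly moved between mice. The array medians ran between −0.030 and 0.041, and 2 member probe sets, E2f5 1447625_at and Rbl1 1454293_at, stayed within 0.05 of the array median on all 8 arrays, as did 29.9% of all probe sets. On 5 or more arrays, 7 member probe sets stayed that close, among them all 3 of E2f1 and the only one of E2f4, against 52% of all probe sets. Whether such probe sets detected their transcript cannot be told from centred values, so their narrow intervals do not bound a change in the mRNA. By contrast, E2f8 1436186_at had an SD over all 8 arrays in percentile 99.5 and E2f2 1455790_at in percentile 99.4 of all probe sets, and 18 of the 22 were above the median SD.

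The repressor E2Fs showed no difference past the threshold. E2f4, the main E2F of resting cells, had a log2 fold change of 0.15 (interval −0.19 to 0.48, unadjusted p = 0.329). The mean rested on BTΔMAFF replicate 3, at 0.60, while the other 7 mice lay between −0.015 and 0.029. Without that array, the log2 fold change was −0.0028. E2f5 gave −0.040, −0.014, and 0.047 on its 3 probe sets, the last with BTΔMAFF replicate 4 at 0.88 and an interval of −0.52 to 0.62. E2f7, the atypical partner of E2f8, had 1 probe set with a log2 fold change of −0.079 (interval −0.45 to 0.30, unadjusted p = 0.633). Its BTΔMAFF mice ran between −0.081 and 0.38 and its BTWT mice between −0.048 and 0.54. The difference between E2f7 and E2f8 was not tested.

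None of the 8 probe sets of the pocket proteins passed the threshold. Rb1, which binds the activator E2Fs, had the largest positive log2 fold change of the family with 1444400_at, at 0.31 (interval −0.22 to 0.84, unadjusted p = 0.209). Its values were 0.47, 0.77, −0.10, and −0.18 in BTΔMAFF replicates 1 to 4, against −0.32, −0.0073, 0.0073, and 0.032 in BTWT replicates 1 to 4. BTΔMAFF replicates 1 and 2 lay above all BTWT mice, and replicates 3 and 4 below 3 of them. The other Rb1 probe set gave 0.042 (interval −0.39 to 0.47), and single arrays decided its sign. Leaving out BTΔMAFF replicate 2 turned it to −0.088 and leaving out BTWT replicate 2 to −0.012.

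Rbl1, which represses with E2f4 and E2f5 and is itself an E2F target, had 4 probe sets with log2 fold changes of −0.39, −0.011, 0.099, and 0.11. The lowest, 1432604_at, ran between −0.71 and 0.77 in BTΔMAFF mice and between −0.42 and 2.05 in BTWT mice, and it was 0.16 without BTWT replicate 4. Its interval, −1.91 to 1.14, was the widest of the family. Rbl2, which represses with E2f4 in resting cells, gave 0.11 (interval −0.12 to 0.35) and −0.094 (interval −0.46 to 0.27) on its pair of probe sets. Each of these genes thus had probe sets of both signs, as E2f3 and E2f5 did. Of the 8 genes with more than 1 probe set, all probe sets had 1 sign in 4, namely E2f1, E2f2, E2f8, and Rb1.

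**Figure D2:**
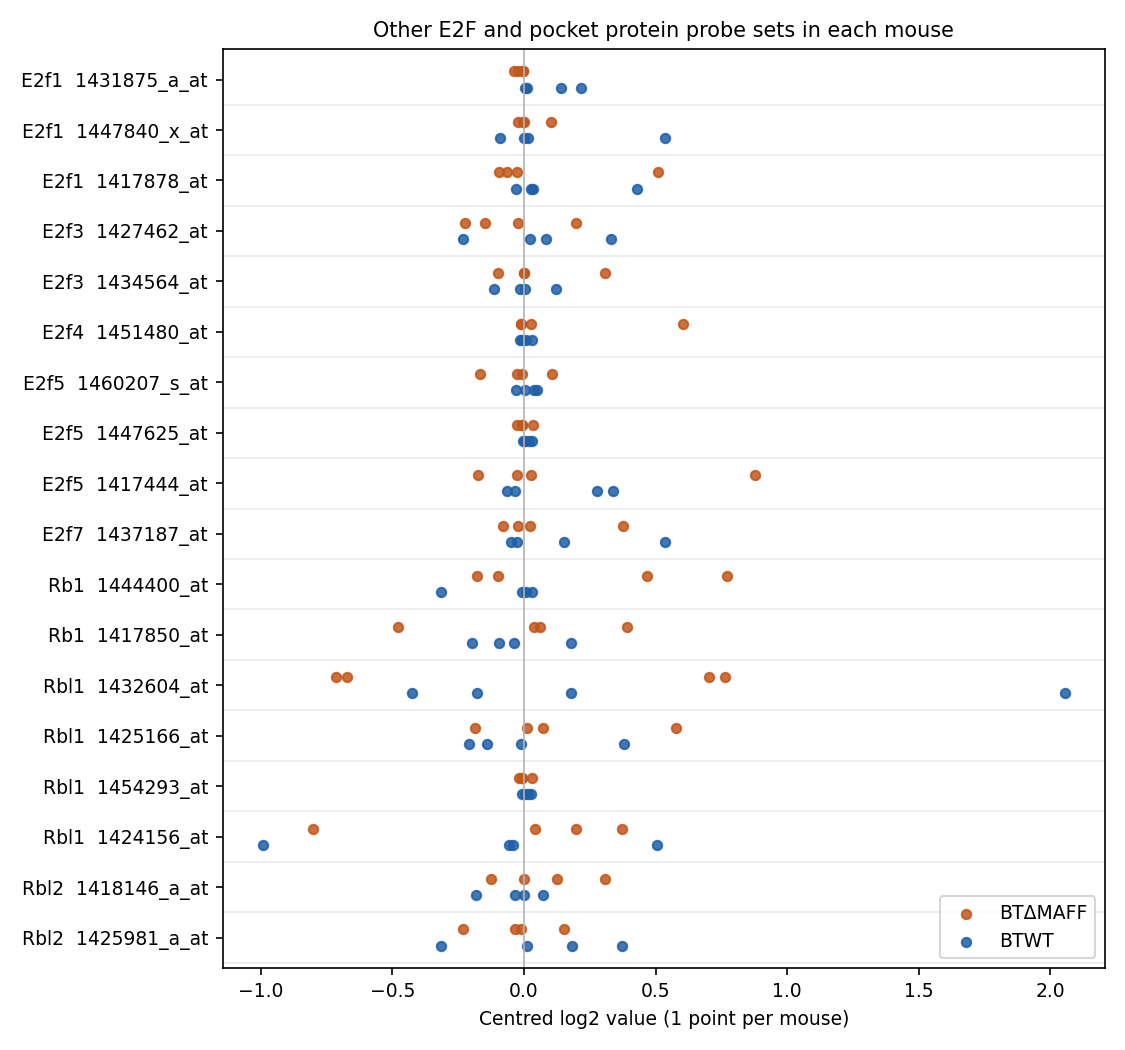
Centred log2 values (horizontal axis) of the 18 member probe sets of genes other than E2f2 and E2f8, 1 point per mouse, with BTΔMAFF (orange) drawn above BTWT (blue) in each row. Rows differ in spread, and single mice stand out, such as BTΔMAFF replicate 3 at 0.60 on E2f4 and BTWT replicate 4 at 2.05 on Rbl1 1432604_at.

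Means were lower in BTΔMAFF for 14 of the 22 member probe sets, against 69.9% of all probe sets. This share depended on the scaling, since after quantile normalization it was 52.3% of all probe sets and 11 members, and with each array centred on its median 51.1% and 12 members. The median log2 fold change was −0.037 over the members and −0.019 over all probe sets. The same 3 probe sets of E2f2 and E2f8 had an unadjusted p under 0.05 in all of these settings.

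**Figure D3:**
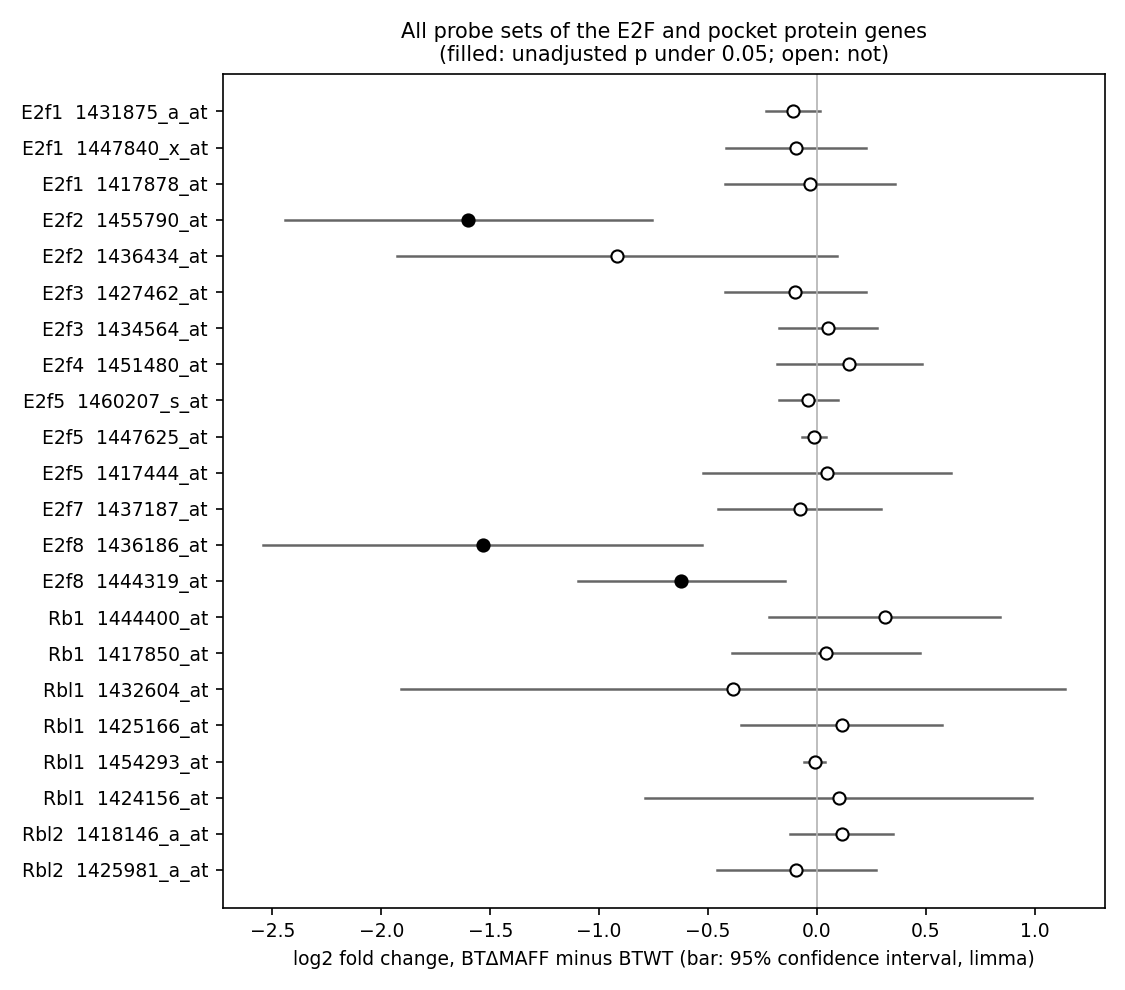
Log2 fold change, BTΔMAFF minus BTWT (horizontal axis), of all 22 member probe sets with 95% confidence intervals from limma, filled where the unadjusted p is under 0.05. The 3 filled points are E2f2 1455790_at at −1.60, E2f8 1436186_at at −1.54, and E2f8 1444319_at at −0.62, and all other intervals cross 0.

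The proteins that act with the E2Fs and pocket proteins were then counted, with 1 probe set per gene, the one with the largest SD over all arrays. Over 18193 genes, 2.35% were lower and 3.37% higher in BTΔMAFF at an unadjusted p under 0.05 (5.72% in either direction), and the median log2 fold change was −0.019. The DP partners, which pair with E2F proteins to bind DNA, gave none of 2 past the threshold (Tfdp1 −0.12 and Tfdp2 0.20). MuvB subunits with B-Myb and FoxM1, which turn on late cell cycle genes, gave none of 7 in either direction, with a median of −0.024. The smallest p values among them belonged to the DNA-binding subunit Lin54 (log2 fold change −0.35, unadjusted p = 0.0651), Foxm1 (−0.36, unadjusted p = 0.246), and Lin52 (−0.072, unadjusted p = 0.281). The median of this list is the value of Mybl2 (B-Myb), whose probe set ran only between −0.039 and 0.061. Whether that probe set detected its transcript cannot be told from centred values.

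Upstream of the pocket proteins, none of 8 G1 cyclins and kinases, which phosphorylate them, passed in either direction, with a median of −0.11. Ccnd1 (cyclin D1) had a log2 fold change of −0.60 (unadjusted p = 0.0885) and Ccnd2 (cyclin D2) one of 0.70 (unadjusted p = 0.12). Among 7 CDK inhibitors, which keep the pocket proteins active, none passed and the median was 0.011. Cdkn1a (p21) came closest, at 0.38 (unadjusted p = 0.0588). Of 12 corepressors that E2F and pocket proteins recruit, 11 were found and none passed (median −0.012), with Sin3b at 0.36 (unadjusted p = 0.112) closest.

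Genes whose promoters E2F proteins bind for S phase were mostly lower on average in BTΔMAFF. Of 36, 33 were found, and 30 had a lower mean, with a list median of −0.33. Over all 18193 genes, taken in the same way with 1 probe set each, 66.8% had a lower mean. After quantile normalization, 28 of the 33 S-phase genes did and 53.4% of all genes, and with each array centred on its median 29 and 51.6%. However, only 2 were lower at an unadjusted p under 0.05, and none was higher. These were Cdt1, which loads the replicative helicase (−0.96, standard error 0.29, unadjusted p = 0.0129), and Mcm5, a subunit of that helicase (−1.30, standard error 0.48, unadjusted p = 0.0313). Uhrf1, which keeps DNA methylation through replication, followed at −0.68 (unadjusted p = 0.0577). The count of 2 moved to 5 when BTWT replicate 4 was left out and to 4 when BTΔMAFF replicate 1 was, and only 1 gene passed when BTΔMAFF replicate 3 or BTWT replicate 1 was. It was again 2 without both arrays that stood apart, 6 with array weights, and 4 with the filter that kept the upper 50% of probe sets by SD.

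Genes of G2 and mitosis that MuvB complexes control had a lower list median in BTΔMAFF than the S-phase genes, a difference that was not tested. Of 24, 23 were found, and the list median was −0.52. The mean was lower in BTΔMAFF for 22 of them, against 66.8% of all genes. It was also lower for 22 after quantile normalization (53.4% of all genes) and with each array centred on its median (51.6%). In limma, 9 were lower at an unadjusted p under 0.05 and none higher, against 2.35% of all genes lower and 3.37% higher. None passed the adjusted threshold. The smallest p values belonged to Birc5 (survivin, a chromosomal passenger protein), with a log2 fold change of −1.15 (standard error 0.22, unadjusted p = 0.00131), Cks2, a subunit of the mitotic kinase (−0.61, unadjusted p = 0.00645), and Top2a, the topoisomerase that untangles chromosomes (−1.02, unadjusted p = 0.0073). Mki67, which marks dividing cells, was at −0.60 (unadjusted p = 0.0364). The list was chosen with this tendency of mitotic genes already known. The count of 9 was 5 with the methods' unpaired test, 16 with array weights, and 7 without both arrays that stood apart, and it depended on single arrays. Leaving out BTWT replicate 4 gave 14, and leaving out BTΔMAFF replicate 3 gave 5. It was 4 when BTWT replicate 1 was dropped, and 3 when either BTΔMAFF replicate 2 or BTWT replicate 3 was. At the same threshold, 1 gene was higher with each array centred on its median, with array weights, and without BTΔMAFF replicate 1.

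**Figure D4:**
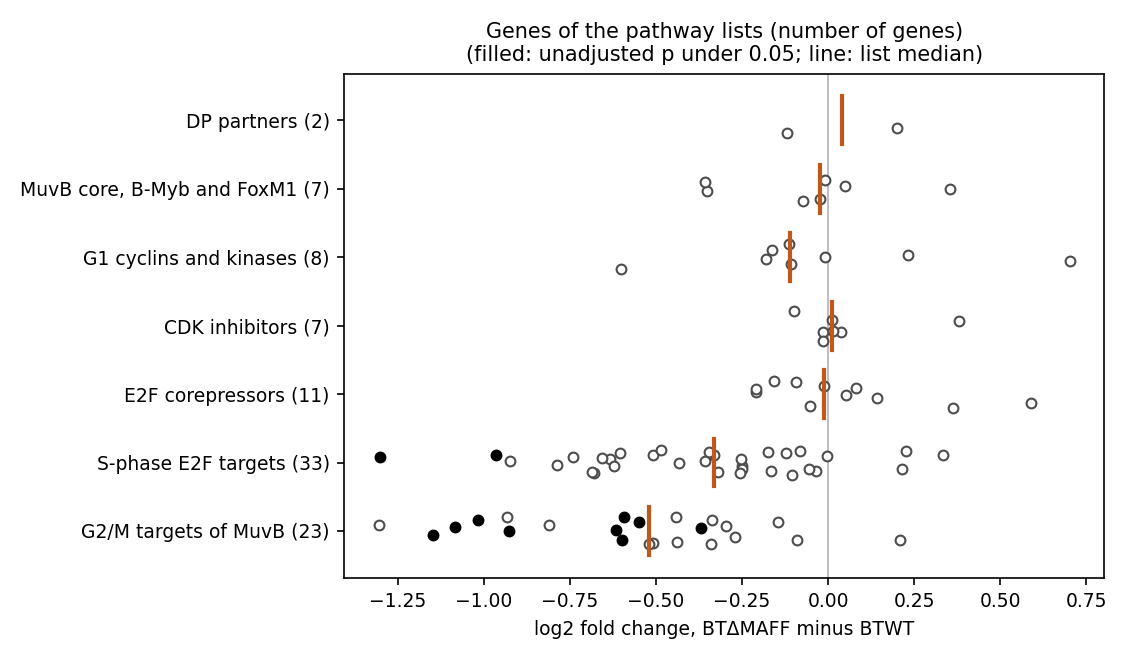
Log2 fold change, BTΔMAFF minus BTWT (horizontal axis), of each gene found in 7 lists around the E2Fs, with filled points at an unadjusted p under 0.05 and a line at the list median. Filled points occur only among S-phase targets (2 of 33, median −0.33) and G2/M targets (9 of 23, median −0.52), all lower in BTΔMAFF.

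By mouse, the mean over the G2/M genes was 0.013, −0.37, −0.41, and −0.023 in BTΔMAFF replicates 1 to 4, against 0.74, 0.25, 0.59, and −0.091 in BTWT replicates 1 to 4. BTWT replicate 4 lay among the BTΔMAFF mice. That mouse was also the lowest of its group on 3 of the 4 probe sets of E2f2 and E2f8, the exception being E2f2 1436434_at, where BTWT replicate 2 was lower. The mean over the S-phase genes was 0.099, 0.012, −0.39, and −0.31 in BTΔMAFF replicates 1 to 4, against 0.70, 0.059, 0.22, and −0.079 in BTWT replicates 1 to 4. BTΔMAFF replicates 3 and 4, the lowest on E2f8 1436186_at, were also the lowest there.

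Some cell type markers also passed. Of 7 surface colonocyte markers, Slc26a3 (0.48) and Krt20 (0.32) were higher and Ceacam20 (−0.38) was lower in BTΔMAFF at an unadjusted p under 0.05. Of 7 goblet cell markers, Clca1 (0.90) and Fcgbp (0.67) were higher and Agr2 (−0.55) was lower, and of 7 epithelial markers Vil1 (0.40) and Krt19 (0.22) were higher. These 8 genes are named because they passed, as did 5.72% of all genes in either direction. The mean over the colonocyte list ran between −0.058 and 0.12 in BTΔMAFF mice and between −0.14 and 0.094 in BTWT mice. None of 5 crypt base stem cell markers passed, and their mean ran between −0.34 and 0.57 in BTΔMAFF mice and between −0.21 and 0.69 in BTWT mice. The mean over 8 stromal markers was 0.14, 0.86, 0.11, and 0.046 in BTΔMAFF replicates 1 to 4, against −0.25, −0.34, −0.22, and 0.25 in BTWT replicates 1 to 4. BTWT replicates 1 to 3 lay below all BTΔMAFF mice, and BTWT replicate 4, the mouse with low G2/M genes, lay among them. The stromal list had a median log2 fold change of 0.29, with 5 of 8 genes higher on average in BTΔMAFF and none past the threshold. The log2 fold changes of its 3 genes of smallest p were 1.14 for the collagen gene Col3a1 (unadjusted p = 0.0523), 0.77 for the collagen gene Col1a1 (unadjusted p = 0.127), and 1.03 for the matrix proteoglycan gene Dcn (unadjusted p = 0.171). The part of cell composition, stromal cells included, in the values of E2f2 and E2f8 was not tested.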

How the data were processed

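For each array, the authors deposited log2 values, centred for each probe set on its median over the 8 arrays. Affymetrix Expression Console is named in the submitters' notes. How background was corrected and arrays were normalized is not given in the sources used here. Control probe sets (64) were left out. The remaining 45037 entered 1 limma fit (version 3.58.1, R 4.3.3, lmFit and eBayes without covariates), adjusted over all of them by Benjamini-Hochberg with a threshold of 0.05. Precision is limited by the number of arrays.

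The array annotation gave 1 gene for 34945 probe sets, several for 932, and none for 9160, and only the first were named. The members and the gene lists were chosen with earlier results of these data known, and the window of 0.05 around array medians after the values were seen. Named were every member probe set, up to 3 genes of smallest p per pathway list, Mki67, Epcam, Ptprc, and the 5 genes most alike E2f2 1455790_at. Markers that passed the unadjusted threshold, 3 stromal markers, and Mybl2 were named in addition, after their values were seen. Alternatives were quantile normalization, centring each array, array weights, a replicate block, leaving out arrays, the methods' test, a robust prior, a filter on SD, and the mean over a gene's probe sets. Values with the mean over a gene's probe sets are not given here.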

Additional observations from a re-analysis of the deposited data

Results flagged for a closer look

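In 6 of 44 groups of 4 mice (22 probe sets in each group of mice), 1 mouse was far from the other 3 by Dixon's criterion, which by chance marks about 1 in 20 groups. These groups come from the same arrays and are not independent. The share over all probe sets was not counted, so the 6 cannot be read as an excess in this family. On E2f2 1455790_at, BTWT replicate 4 was at 0.00309, whereas the other BTWT mice lay between 0.968 and 1.14. On E2f4 1451480_at, BTΔMAFF replicate 3 was at 0.604 and the other BTΔMAFF mice reached 0.025 at most. On E2f1 1417878_at, BTΔMAFF replicate 4 stood out at 0.508 and BTWT replicate 1 at 0.429, and on E2f1 1447840_x_at BTWT replicate 2 did at 0.537. On Rb1 1444400_at, BTWT replicate 1 was low at −0.317, with the other BTWT mice between −0.00725 and 0.032. Of these mice, BTΔMAFF replicate 4 and BTWT replicate 2 were those that stood apart on the first principal component.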

How the results depend on the processing

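No alternative gave a member probe set with an adjusted p under 0.05. The 3 member probe sets at an unadjusted p under 0.05 became 7 with array weights, which gave BTWT replicate 3 (4.68) and BTΔMAFF replicate 2 (4.36) the most weight and called 25.6% of all probe sets. The added ones were E2f2 1436434_at (−1.40), Rb1 1444400_at (0.63), Rb1 1417850_at (0.29), and Rbl1 1425166_at (0.46). Without both arrays that stood apart, 1 member passed the unadjusted p and 1 also the fold of 2, while 5 did not overlap, as did 45.1% of all probe sets. With single arrays left out, the counts ran from 3 to 5 for the unadjusted p and from 3 to 5 for probe sets that did not overlap (42.9% of all probe sets without BTΔMAFF replicate 4). The 11 genes of the pathway lists at an unadjusted p under 0.05 became 31 with array weights, 7 with the methods' test, and 6 to 19 with single arrays left out. With array weights, 64.4% of all calls at an unadjusted p were lower in BTΔMAFF, against 43.9% as reported. With the filter on SD, E2f2 1436434_at had an unadjusted p of 0.034.

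Whether replicate numbers pair the samples is not given by the labels and cannot be decided from so few mice per group. The deviations of same-numbered mice correlated at 0.392, −0.0404, 0.0326, and −0.266, and only replicate 1 matched its own number best. With the replicate block, 3 member probe sets again passed the unadjusted p, and 2748 of all probe sets did.

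Member probe sets outside E2f2 and E2f8 changed sign under some settings. After quantile normalization, E2f5 1460207_s_at was 0.012, E2f5 1447625_at 0.0051, and Rbl1 1454293_at 0.0093, and with each array centred the last 2 were 0.0039 and 0.0067. With array weights, E2f5 1460207_s_at was 0.052 and E2f5 1417444_at −0.021. Without both arrays that stood apart, E2f1 1447840_x_at was 0.017, E2f3 1427462_at 0.052, E2f5 1460207_s_at 0.015, and E2f5 1417444_at −0.14. With single arrays left out, E2f1 1447840_x_at ran from −0.16 to 0.044, E2f1 1417878_at from −0.18 to 0.071, E2f3 1434564_at from −0.033 to 0.10, and E2f4 from −0.0028 to 0.20. E2f5 1460207_s_at ran from −0.083 to 0.0079, E2f5 1417444_at from −0.19 to 0.16, E2f7 from −0.18 to 0.049, and Rb1 1417850_at from −0.088 to 0.20. Rbl1 1432604_at ran from −0.66 to 0.16, Rbl1 1425166_at from −0.040 to 0.24, Rbl1 1424156_at from −0.18 to 0.35, and Rbl2 1425981_a_at from −0.22 to 0.0092. Causes were not tested.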

Other observations

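The genes whose values followed E2f2 1455790_at most closely over the 8 arrays were Ivns1abp (Pearson r = 0.973), Camsap2 (0.955), C1galt1 (0.95), Prr14l (0.939), and Vldlr (0.936). None is a member of the lists around the E2Fs. Their log2 fold changes, BTΔMAFF minus BTWT, were −0.51, −1.20, −0.53, −0.033, and −0.75. These are descriptions over 8 arrays, and the genes were picked as the highest of all named probe sets. All but Prr14l (unadjusted p = 0.135 in limma) share the group difference of E2f2 in direction at an unadjusted p under 0.05.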
